A study of Mus musculus with 9 samples.

Results

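The nuclear receptors and coactivators that set fat burning and mitochondrial content were followed through the whole kidney of Alport mice. The set has 10 genes, chosen by name: the fatty acid receptors Ppara, Ppard and Pparg, their partners Rxra and Rxrb, the oxysterol receptor Nr1h3 (LXR-alpha), the coactivators Ppargc1a and Ppargc1b, and the downstream factors Esrra and Tfam. All 10 were among the 22637 gene symbols counted and among the 17315 genes tested. The libraries formed 3 groups of 3, all from kidneys of 129X1/SvJ mice at 9 weeks of age: wild type without treatment (WT), Col4a3 -/- with PBS (KO_PBS) and Col4a3 -/- with antimiR-21, which blocks the microRNA miR-21 (KO_antimiR21). No dose is in the labels. Nor do they state that each library is a different mouse, and p-values then speak only of the spread among these libraries, part of which may be technical. Wild-type mice had no injection, so genotype and injection cannot be told apart in any comparison with WT.

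PPARs are transcription factors that bind fatty acids and pair with an RXR on DNA, where they switch on genes of fatty acid uptake and oxidation. PGC-1 coactivators dock on PPARs and on ERR-alpha (Esrra) and raise the transcription of mitochondrial genes, and Tfam packages and transcribes the mitochondrial genome. The proximal tubule, which makes up much of the kidney cortex, burns mainly fatty acids and is rich in mitochondria.

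Libraries held 26448275 to 31786624 expected counts. Levels are given as CPM, counts scaled to the TMM-adjusted total of the library. Col4a3 itself was at 257 to 371 CPM in WT and at 44.3 to 138 CPM in the 6 knockout libraries, lower in each of them. Y-linked transcripts marked WT 1 and WT 3 as female and the remaining 7 libraries as male, so the WT libraries came from more than 1 mouse. Sex differed only within WT, so an edgeR fit with sex as a covariate compares the knockout libraries with WT 2 alone. Male libraries alone give the same contrast, with WT 2 as the sole WT library. With 1 WT library left, these fits cannot settle the part of sex. Every call against WT below rests on a fit that leaves sex out, and the part of sex in it was not tested. A code in the deposited names was L4 for WT and for KO_PBS 1 and 2 and L5 for KO_PBS 3 and all of KO_antimiR21, and its meaning is not given in the sources used here.

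The kidney label was met by its markers, and their mix differed between groups. The summed level of 10 proximal tubule markers ran from 9507 to 14755 CPM in WT, from 1534 to 5032 CPM in KO_PBS and from 3817 to 7935 CPM in KO_antimiR21. The sum of 10 macrophage markers ran from 173 to 211, from 825 to 1090 and from 392 to 841 CPM in the same order. None of these 20 markers was at 0 in every library. In bulk kidney RNA, fewer cells of a type and less RNA per cell cannot be told apart.

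Per kilobase of the longest transcript in GENCODE vM21, Esrra was the most abundant of the 10 regulators in WT at 63.5 ± 5.01 CPM per kilobase (SD, n = 3). Nr1h3 followed at 27.8 ± 1.31, then Rxra at 20.8 ± 3.38, Rxrb at 20.5 ± 0.927 and Tfam at 13.0 ± 1.03 CPM per kilobase. Rxra and Rxrb did not differ beyond their spread. Ppara at 7.84 ± 5.77, Ppard at 6.73 ± 2.02, Ppargc1a at 3.73 ± 1.80, Ppargc1b at 2.94 ± 0.973 and Pparg at 1.98 ± 0.609 CPM per kilobase formed the low end. Ppard lay above Ppargc1a in every WT library, and the means differed by more than either SD. The other neighbouring pairs at the low end differed by less than the larger of their SDs.

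**Figure D1:**
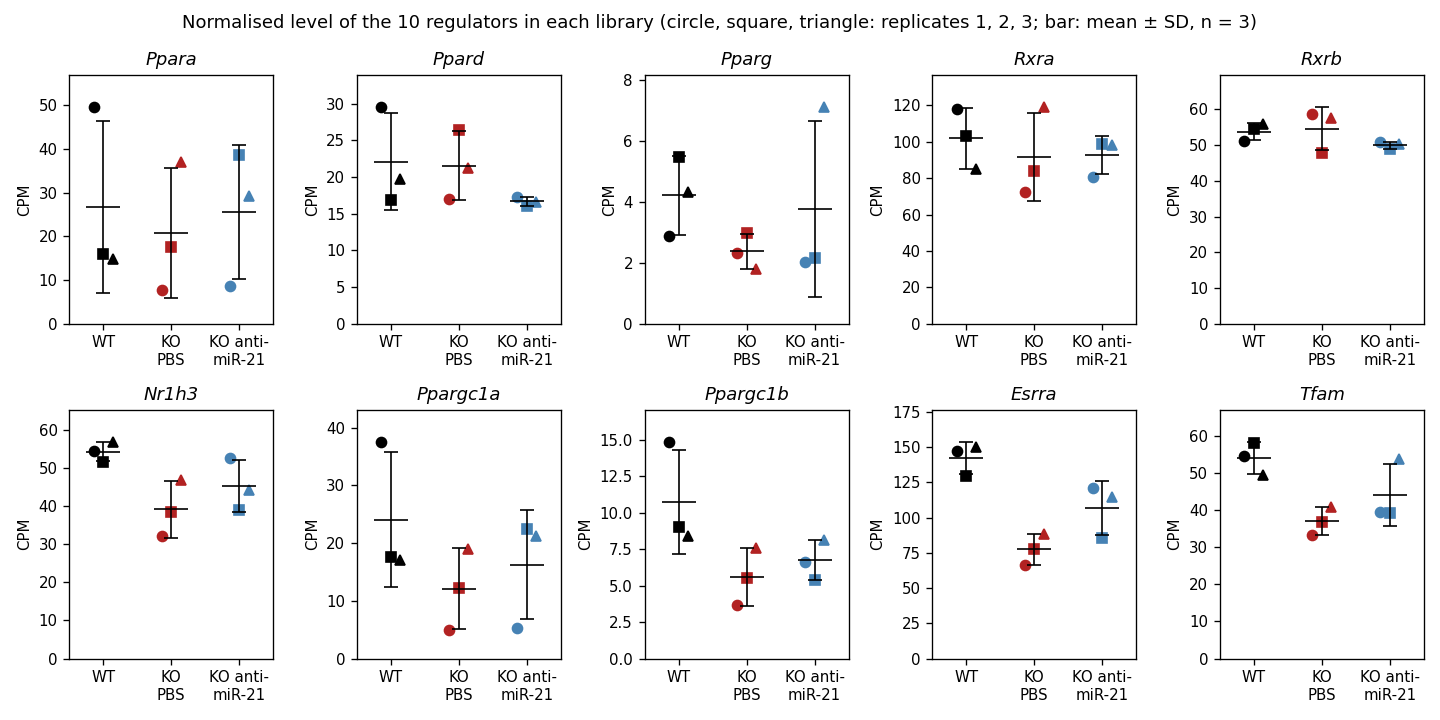
CPM of each of the 10 regulators (vertical axis, from 0) in the 3 groups; points are libraries and the bar is the mean ± SD of 3 libraries. Esrra, Tfam, Nr1h3 and Ppargc1b are lower in every KO_PBS library than in every WT library, and Ppara and Ppargc1a spread widely inside each group.

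In KO_PBS against WT, 2 of the 10 regulators fell and none rose. Esrra fell 1.83-fold and Tfam fell 1.46-fold. The test was the edgeR quasi-likelihood F test with Benjamini-Hochberg adjustment over all 17315 genes, and the threshold was an adjusted p of 0.05. Of all genes, 9.85% passed as lower and 24.4% passed in either direction. The 2 of 10 regulators are to be read against these shares, and with 10 genes they do not set the group apart. In 4 of 10 regulators, Nr1h3, Ppargc1b, Esrra and Tfam, every KO_PBS library lay below every WT library, against 20.5% of all genes. The median change of the 10 was -0.51 on the log2 scale, against -0.03 for all genes tested.

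Ppara, the receptor that drives fatty acid oxidation, was the most variable of the set. It stood at 49.5, 16.0 and 14.8 CPM in WT 1, 2 and 3, at 7.78, 17.6 and 36.9 CPM in KO_PBS and at 8.73, 38.7 and 29.1 CPM in KO_antimiR21. The groups overlapped over nearly their whole range, and the highest library was 3.35, 4.75 and 4.43 times the lowest within WT, KO_PBS and KO_antimiR21. The change in KO_PBS against WT was -0.37 ± 0.71 (log2, SE; edgeR adjusted p = 0.761). It was 0.30 ± 0.71 in KO_antimiR21 against KO_PBS (edgeR adjusted p = 0.966) and -0.07 ± 0.71 in KO_antimiR21 against WT (edgeR adjusted p = 0.974). Single libraries turned the sign against WT: without WT 1 the change was 0.45 for KO_PBS and 0.75 for KO_antimiR21, without KO_PBS 1 it was 0.028 for KO_PBS, and without KO_antimiR21 1 it was 0.34 for KO_antimiR21. The SD of log2 CPM within groups was 1.08 for Ppara, at percentile 96.1 of all genes, where the median gene had 0.30.

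Ppara is a known target of miR-21, so the inhibited microRNA and its sites are shown here. The seed of the mature strand, bases 2 to 8, is in capitals, as are the bases of each site that pair with it or complete the site. Both genes that held a site of 7 or 8 bases are listed, with 20 bases of the 3' untranslated region each. The microRNA comes from RefSeq (GRCm38.p6, chr11:86584120-86584141, minus strand). The sites are in the longest 3' untranslated region of GENCODE vM21 on GRCm38, at chr15:85801829-85801836 (plus strand) for Ppara and chr5:51455057-51455063 (minus strand) for Ppargc1a.
mmu-miR-21a-5p: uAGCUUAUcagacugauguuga
Ppara: tagtttgATAAGCTAtccca
Ppargc1a: tcaaaatATAAGCTgtaagc
The Ppara site is an 8-mer at bases 571 to 578 of 1561, and that of Ppargc1a a 7-mer at bases 3117 to 3123 of 3930, with a 6-mer at bases 3125 to 3130. The other 8 regulators held no site of 6 or more bases. Of 14186 tested genes searched, 2.35% held an 8-mer and 12.2% an 8-mer or 7-mer. Neither Ppara nor Ppargc1a passed the test in KO_antimiR21 against KO_PBS, and the median change of the 333 genes with an 8-mer was 0.02 on the log2 scale, against -0.01 for all genes. A match of letters is a description and shows no binding.

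Ppard, the PPAR found in most cell types, stood at 29.5, 16.9 and 19.7 CPM in WT, at 17.0, 26.4 and 21.2 CPM in KO_PBS and at 17.3, 16.1 and 16.6 CPM in KO_antimiR21. The 3 inhibitor libraries were close together and overlapped both other groups. Ppard changed by -0.03 ± 0.23 in KO_PBS against WT (log2, SE; edgeR adjusted p = 0.939) and by -0.37 ± 0.23 in KO_antimiR21 against KO_PBS (edgeR adjusted p = 0.753).

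Pparg, the receptor best known for fat cell formation, was the scarcest of the set, with 52 to 193 expected counts per library. It stood at 2.87, 5.45 and 4.30 CPM in WT, at 2.33, 2.97 and 1.80 CPM in KO_PBS and at 2.02, 2.16 and 7.09 CPM in KO_antimiR21. WT and KO_PBS overlapped, and KO_antimiR21 3 stood above all other libraries. The change was -0.83 ± 0.50 in KO_PBS against WT (log2, SE; edgeR adjusted p = 0.272). In KO_antimiR21 against KO_PBS it was 0.67 ± 0.50 (edgeR adjusted p = 0.807), and -0.15 without KO_antimiR21 3.

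A summed level of fat cell markers had the same order of libraries as Pparg within each group. The sum of 7 white adipocyte markers was 372 CPM in KO_antimiR21 3 and 27.4 to 153 CPM in the other 8 libraries. Adipoq, the fat cell hormone adiponectin, was at 28.3 CPM in KO_antimiR21 3 and at 0.0388 to 9.38 CPM elsewhere. Within WT, WT 2 was highest for Pparg and for the marker sum, and within KO_PBS, KO_PBS 2 was. The marker Fabp4 was most of the sum in some libraries, with 81.3 of 87.9 CPM in WT 3 and 39.1 of 39.8 CPM in KO_antimiR21 1. Other markers did not keep the order of Pparg within WT. WT 3 was above WT 1 for Pparg but below it for Adipoq (1.01 against 2.24 CPM), Plin, Cidec and Cfd. Lep, a defining fat cell marker, was at 0.441 CPM or less in every library, and none of the 7 markers was at 0 in all of them. The part of fat tissue in the Pparg values was not tested.

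Rxra and Rxrb encode the partners that PPARs, LXRs and other receptors need to bind DNA. Rxra stood at 118, 103 and 84.8 CPM in WT, at 72.4, 84.1 and 119 CPM in KO_PBS and at 80.7, 99.0 and 98.1 CPM in KO_antimiR21. Its groups overlapped, and the change in KO_PBS against WT was -0.15 ± 0.20 (log2, SE; edgeR adjusted p = 0.648). Rxrb stood at 51.0, 54.4 and 55.8 CPM in WT, at 58.6, 47.7 and 57.5 CPM in KO_PBS and at 50.8, 48.9 and 50.3 CPM in KO_antimiR21. It was the steadiest of the 10 regulators, with a within-group SD of 0.10 (log2), at percentile 4.82 of all genes. The change of Rxrb was 0.02 ± 0.11 in KO_PBS against WT (edgeR adjusted p = 0.915) and -0.10 ± 0.11 in KO_antimiR21 against WT (edgeR adjusted p = 0.684).

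Nr1h3 encodes LXR-alpha, which senses oxysterols and switches on cholesterol export. It stood at 54.5, 51.7 and 56.8 CPM in WT, at 32.2, 38.6 and 47.1 CPM in KO_PBS and at 52.7, 39.2 and 44.3 CPM in KO_antimiR21. All KO_PBS libraries lay below all WT libraries, while KO_antimiR21 1 lay within the WT range. The change in KO_PBS against WT was -0.47 ± 0.16 (log2, SE; edgeR adjusted p = 0.0692) and did not pass. It passed with DESeq2 (adjusted p = 0.0445), and in edgeR without KO_PBS 3 (-0.62, adjusted p = 0.0379). The edgeR fit with the name code gave the same estimate (-0.62, adjusted p = 0.0383). Among WT and KO_PBS, KO_PBS 3 alone carries L5, so this fit is not separate support. The change of Nr1h3 was 0.21 ± 0.16 in KO_antimiR21 against KO_PBS (edgeR adjusted p = 0.816).

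The coactivator Ppargc1a (PGC-1-alpha) is the inducible switch of mitochondrial biogenesis, and Ppargc1b (PGC-1-beta) is its relative. Ppargc1a stood at 37.5, 17.6 and 17.1 CPM in WT, at 5.01, 12.3 and 19.0 CPM in KO_PBS and at 5.31, 22.4 and 21.2 CPM in KO_antimiR21. KO_PBS 3 lay within the WT range, and KO_antimiR21 1 was far below the other inhibitor libraries. The KO_PBS mean was 1.99-fold below the WT mean in the fit, at -0.99 ± 0.61 (log2, SE; edgeR adjusted p = 0.28). Without WT 1 the change was -0.51 (edgeR adjusted p = 0.639).

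Ppargc1b stood at 14.9, 9.02 and 8.41 CPM in WT, at 3.67, 5.54 and 7.61 CPM in KO_PBS and at 6.63, 5.41 and 8.16 CPM in KO_antimiR21. All 6 knockout libraries lay below the WT range. The change was -0.94 ± 0.33 in KO_PBS against WT (log2, SE; edgeR adjusted p = 0.0673) and -0.68 ± 0.33 in KO_antimiR21 against WT (edgeR adjusted p = 0.292). Neither passed. The KO_PBS call turned on the analysis: without WT 1 the change was -0.62 (edgeR adjusted p = 0.227), and without KO_PBS 3 it was -1.22 and passed (edgeR adjusted p = 0.0461). It also passed with DESeq2 (adjusted p = 0.0276), and in edgeR with the transcript length covariate described below (adjusted p = 0.0386). The edgeR fit with the name code (adjusted p = 0.0458) gave the same change as leaving out KO_PBS 3, and is not separate support.

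Esrra encodes ERR-alpha, the receptor through which PGC-1 acts on genes of respiration. It stood at 147, 129 and 150 CPM in WT, at 66.5, 77.8 and 88.5 CPM in KO_PBS and at 121, 85.2 and 115 CPM in KO_antimiR21. All knockout libraries were below all WT libraries, and KO_antimiR21 overlapped KO_PBS only through KO_antimiR21 2. Esrra fell by 0.88 ± 0.17 on the log2 scale in KO_PBS against WT (SE; edgeR adjusted p = 0.00729). It passed in 19 of 21 alternative analyses. The exceptions were sex as a covariate (-0.74) and male libraries only (-0.71). Both compare with WT 2 alone, so they are not separate results.

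The libraries with the lowest proximal tubule marker sum in their group, WT 2, KO_PBS 1 and KO_antimiR21 2, were also lowest for Esrra. Their sums were 9507, 1534 and 3817 CPM. The same 3 libraries were lowest in their groups for Nr1h3. Tfam was lowest in WT 3 within WT, and Ppara and Ppargc1a were lowest in WT 3 and KO_antimiR21 1. WT 2 was also the sole male WT library, so sex and tubule sum cannot be told apart within WT. The share of all genes with this pattern was not counted. The sum of 5 brown adipocyte markers, some of them mitochondrial genes, ran from 32.2 to 49.9 CPM in WT and from 4.87 to 14.6 CPM in KO_PBS. In KO_antimiR21 1, 2 and 3 it was 23.0, 8.22 and 94.5 CPM, and none of the 5 was at 0 in every library. The part of tubule or fat content in these values was not tested.

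Tfam, which coats and transcribes mitochondrial DNA, stood at 54.7, 58.1 and 49.6 CPM in WT, at 33.4, 36.8 and 41.0 CPM in KO_PBS and at 39.4, 39.4 and 53.9 CPM in KO_antimiR21. WT and KO_PBS did not overlap, and KO_antimiR21 3 reached into the WT range. Tfam fell by 0.55 ± 0.16 (log2, SE) in KO_PBS against WT (edgeR adjusted p = 0.0328). This call was less firm than that of Esrra: it was lost in 9 of 21 alternatives, among them the omission of any 1 WT library or of KO_PBS 1 or 2, with adjusted p between 0.0516 and 0.111 over those 5.

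Promoters of the 2 genes that fell are shown, each with 1 of the motifs found in it in capitals. They are RefSeq start sites on GRCm38.p6, from 250 bases before to 50 bases after the start, at chr19:6921759-6922058 (minus strand) for Esrra and chr10:71237995-71238294 (minus strand) for Tfam.
Esrra: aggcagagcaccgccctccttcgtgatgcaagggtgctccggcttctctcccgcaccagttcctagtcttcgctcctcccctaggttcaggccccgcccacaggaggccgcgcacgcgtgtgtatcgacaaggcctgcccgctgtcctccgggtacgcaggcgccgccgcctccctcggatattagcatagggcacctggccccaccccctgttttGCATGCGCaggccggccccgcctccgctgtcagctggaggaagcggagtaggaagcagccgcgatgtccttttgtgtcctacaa
Tfam: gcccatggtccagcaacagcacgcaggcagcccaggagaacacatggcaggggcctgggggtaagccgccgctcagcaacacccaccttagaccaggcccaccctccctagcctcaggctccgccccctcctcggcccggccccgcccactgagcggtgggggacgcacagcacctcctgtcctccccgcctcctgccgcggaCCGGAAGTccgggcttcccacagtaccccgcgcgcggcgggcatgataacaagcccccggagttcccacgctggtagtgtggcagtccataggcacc
The capitals in Esrra mark GCATGCGC, the core bound by nuclear respiratory factor NRF1, and those in Tfam mark CCGGAAGT, an ETS motif of the kind bound by GABPA. Of 32851 promoters of this length, searched on both strands, 2.71% held the former and 3.89% the latter. The NRF1 core was also in the promoters of Ppara and Rxrb, so 3 of the 9 regulators with a promoter entry held it. The GC box GGGCGG was in 7 of the 9, among them Esrra and Tfam with 2 matches each (not in capitals), and in 35.7% of all promoters. Neither the nuclear receptor repeat AGGTCANAGGTCA nor TCAAGGTCA, the extended site of ERR receptors, was in any of the 9 windows, and 0.0396% and 0.423% of all promoters held them. The shorter AGGTCA, which both of those contain, was in Pparg and Rxra and in 16.3% of all promoters. These are matches of letters, and no binding was measured.

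In KO_antimiR21 against KO_PBS, none of the 10 regulators passed the edgeR test, nor did any gene (0% of 17315). At an unadjusted p under 0.05 edgeR had 1203 genes and 1 regulator, Esrra. Its change was 0.46 ± 0.17 (log2, SE; edgeR adjusted p = 0.707). DESeq2 called 6 genes higher and 12 lower, and limma called 0, with no regulator among them. The estimates were above 0 for 8 regulators and below 0 for Ppard and Rxrb, with a median of 0.26 against -0.01 for all genes. KO_PBS against WT uses the same KO_PBS libraries, so low values in them move these comparisons in opposite directions. With the name code as a covariate, 3 regulators were above 0 and 7 below, with a median of -0.19. The code differs from treatment in these groups only for KO_PBS 3. That fit therefore compares the inhibitor libraries with KO_PBS 3 alone. In no regulator did all inhibitor libraries lie above all KO_PBS libraries, which 3.83% of all genes did. Over 21 alternatives the Esrra change ran from 0.27 (with the name code) to 0.60 (without KO_antimiR21 2), with adjusted p of 0.169 or more.

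KO_antimiR21 against WT shares libraries with both other comparisons, so its values are given only side by side with theirs. None of the 10 regulators passed by edgeR, against 7.15% of all genes in either direction and 0.427% lower. At an unadjusted p under 0.05 edgeR had 1 regulator, against 20.2% of all genes. DESeq2 and limma called 0 regulators. Of all genes they called 2.28% and 0.341% lower, and 9.34% and 6.99% higher. All 10 estimates were below 0, with a median of -0.28, against -0.04 for all genes. Ppargc1b, Esrra and Rxrb had every inhibitor library below every WT library, as did 9.83% of all genes. For Esrra the change was -0.41 ± 0.17 (log2, SE; edgeR adjusted p = 0.207), and for Tfam -0.29 ± 0.15 (edgeR adjusted p = 0.344).

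**Figure D2:**
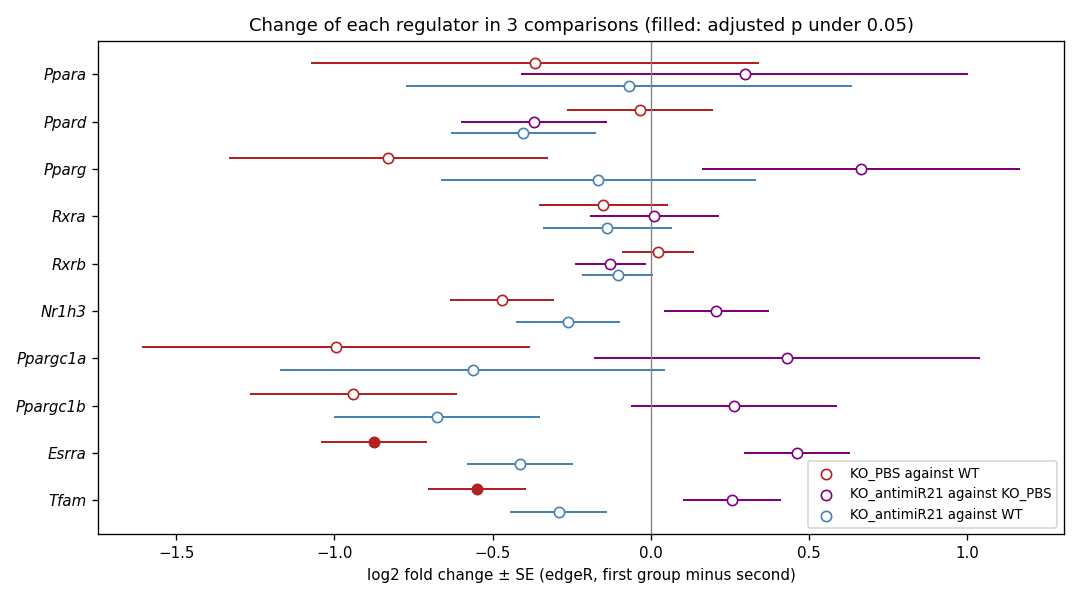
log2 fold change of each regulator (horizontal axis, edgeR estimate, bars ± SE) in the 3 comparisons, with filled circles for an adjusted p under 0.05. Esrra and Tfam in KO_PBS against WT are the 2 filled points, and the bars of Ppara and Ppargc1a are the widest.

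Ppara and Ppargc1a moved together from library to library within groups. Their deviations from the group means differed by 0.21 on average (root mean square, log2), while each alone had a within-group SD of 1.08 and 0.95. A property of whole libraries moved with both. In each library the median deviation of the 3577 genes with the shortest transcripts was taken from that of the 3576 with the longest, over 14308 tested genes with a length (82.6%). This difference was 0.18, 0.02 and -0.20 in WT 1, 2 and 3, -0.23, 0.03 and 0.19 in KO_PBS and -0.37, 0.28 and 0.08 in KO_antimiR21 (log2).

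The deviations of Ppara were 1.12, -0.50 and -0.62 in WT, -1.14, 0.03 and 1.10 in KO_PBS and -1.29, 0.85 and 0.44 in KO_antimiR21. Those of Ppargc1a were 0.74, -0.35 and -0.39, then -1.06, 0.22 and 0.85, then -1.35, 0.71 and 0.63. Within each of the 3 groups, the libraries had the same order for the length difference, Ppara and Ppargc1a. The order was not particular to these genes, since Rxra had it in all 3 groups. The Rxra deviations were smaller: 0.22, 0.03 and -0.25, then -0.31, -0.09 and 0.41, then -0.19, 0.10 and 0.09. Ppargc1b had the order in WT and KO_PBS only. Esrra had it in KO_PBS only, since Esrra was highest in WT 3 and in KO_antimiR21 1. Ppara, at 3413 bases, was below the 4629 bases that bound the longest class, while Ppargc1a had 6464 and Rxra 4905 bases. A covariate fit was added after the length difference was seen. Its covariate was this difference with each gene centred on its mean over all 9 libraries, not on its group mean. That was 0.19, 0.03 and -0.21 in WT, -0.21, 0.09 and 0.26 in KO_PBS and -0.44, 0.24 and 0.02 in KO_antimiR21. Its group means can differ, so it can shift the change between groups. With this covariate, 4 regulators fell in KO_PBS against WT: Esrra, Tfam, Ppargc1a and Ppargc1b. That fit called 15.0% of all genes lower, more than the 9.85% without the covariate. Ppargc1a then changed by -1.26 ± 0.25 (log2, SE; edgeR adjusted p = 0.0104) and Ppargc1b by -0.99 ± 0.30 (edgeR adjusted p = 0.0386), and Ppara by -0.62 ± 0.28 (edgeR adjusted p = 0.123). The sum of 4 distal convoluted tubule markers was 1904, 588 and 579 CPM in WT and 242, 302 and 376 CPM in KO_PBS. In KO_antimiR21 it was 378, 418 and 540 CPM. It had the order of Ppara and Ppargc1a in WT and KO_PBS, and was likewise lowest in KO_antimiR21 1. The sums of proximal tubule, thick ascending limb and collecting duct markers did not have this order in WT. Whether transcript length or tubule content plays a part in the spread of Ppara and Ppargc1a was not tested.

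**Figure D3:**
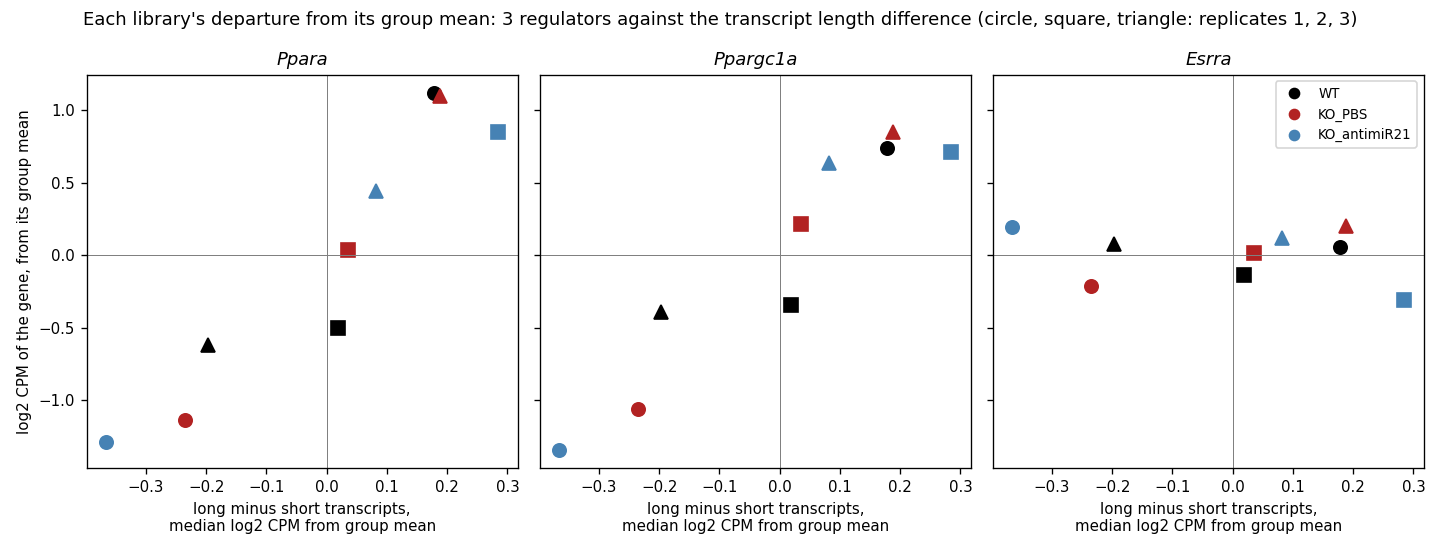
Deviation of Ppara, Ppargc1a and Esrra from the group mean (vertical axis, log2 CPM) against the library's difference between long and short transcripts (horizontal axis, log2); each point is 1 of 9 libraries. Ppara and Ppargc1a run from -1.29 and -1.35 in KO_antimiR21 1 up to 1.12 in WT 1 and 0.85 in KO_PBS 3, and Esrra stays within -0.31 and 0.20.

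Known targets of the regulators were counted from gene lists. Of 34 PPAR-alpha targets, all tested, 12 fell and 2 rose in KO_PBS against WT, with a median of -0.72 against -0.03 for all genes. Of all genes, 9.85% passed as lower and 14.6% as higher, and each list's counts are to be read against these shares. Fabp3, a fatty acid carrier, fell from 66.9 ± 14.8 to 32.1 ± 1.98 CPM (SD, n = 3; edgeR adjusted p = 0.00854). Those that rose were Adfp (perilipin 2, which coats lipid droplets), from 35.1 ± 3.32 to 118 ± 22.8 CPM (edgeR adjusted p = 0.00489), and Fgf21, a fasting hormone. Fgf21 had 0 counts in all WT libraries and 0.585 ± 0.0773 CPM in KO_PBS, at least 4.78-fold higher against a floor of 3 counts per library (edgeR adjusted p = 0.002).

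Targets of PGC-1 and ERR-alpha were the most uniform list: of 18 tested, 16 fell, 1 rose and Cs, citrate synthase, did not pass (-0.38, edgeR adjusted p = 0.094). The median was -1.02. Ndufv1 of respiratory complex I fell from 392 ± 13.0 to 204 ± 35.1 CPM (SD, n = 3; edgeR adjusted p = 0.00784) and Sdhb of complex II from 493 ± 49.1 to 197 ± 43.0 CPM (edgeR adjusted p = 0.00842). Ucp2, a mitochondrial carrier, rose from 164 ± 39.7 to 406 ± 31.5 CPM (edgeR adjusted p = 0.00452). Of 16 tested genes of mitochondrial DNA upkeep, 2 fell, the protease Lonp1 (-0.66) and the topoisomerase Top1mt (-0.59), with a median of -0.32, a share near that of all genes. Beside these target genes, 7 of 10 proximal tubule markers fell in KO_PBS against WT, with a median of -1.54, and the part of tubule content in the target levels was not tested.

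Of 12 LXR targets tested, 4 rose and 2 fell, with a median of 0.04. Abca1, which exports cholesterol from cells, rose from 31.3 ± 6.70 to 102 ± 15.3 CPM (SD, n = 3; edgeR adjusted p = 0.00147), and Arl4c by 2.20 on the log2 scale. Pltp and Apoe were the other genes that rose, and Lpl and Abcg8 fell. Macrophages also express several of these genes, and 9 of 10 macrophage markers rose, with a median of 3.56. The part of macrophages in the LXR target levels was not tested.

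Of 13 tested PPAR-gamma and adipocyte targets, 3 fell: Slc2a4 (-1.89), the insulin-driven glucose transporter, Pck1 (-2.17), of glucose synthesis, and Lpl (-1.94), a lipase. Lpl is the same gene that was counted among the LXR targets. Pck1 averaged 3017 CPM in WT, where Pparg averaged 4.21 CPM. Beside these targets, 7 of 10 proximal tubule markers fell, with a median of -1.54, and the part of tubule content in the target levels was not tested. Among 19 other nuclear receptors, Esrrb (-1.76), Thra (-0.57) and Vdr (-0.78) fell and Rara (0.74) rose. Apoe, Abcg8, Vdr and Cs were named after their values were seen. None of 20 coregulators and upstream kinases passed by edgeR, with a median of -0.10. Of these, 2 had an unadjusted p under 0.05, against 37.0% of all genes. In KO_antimiR21 against KO_PBS no gene of any list passed by edgeR. There the estimates were above 0 for 31 of 34 PPAR-alpha targets (median 0.49) and 17 of 18 PGC-1 and ERR-alpha targets (median 0.50). Proximal tubule markers were above 0 in 9 of 10 (median 0.75). Of all genes, 51.9% were below 0, with a median of -0.01. Both comparisons use the KO_PBS libraries, so a list low in KO_PBS against WT can lean above 0 here for that reason alone.

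**Figure D4:**
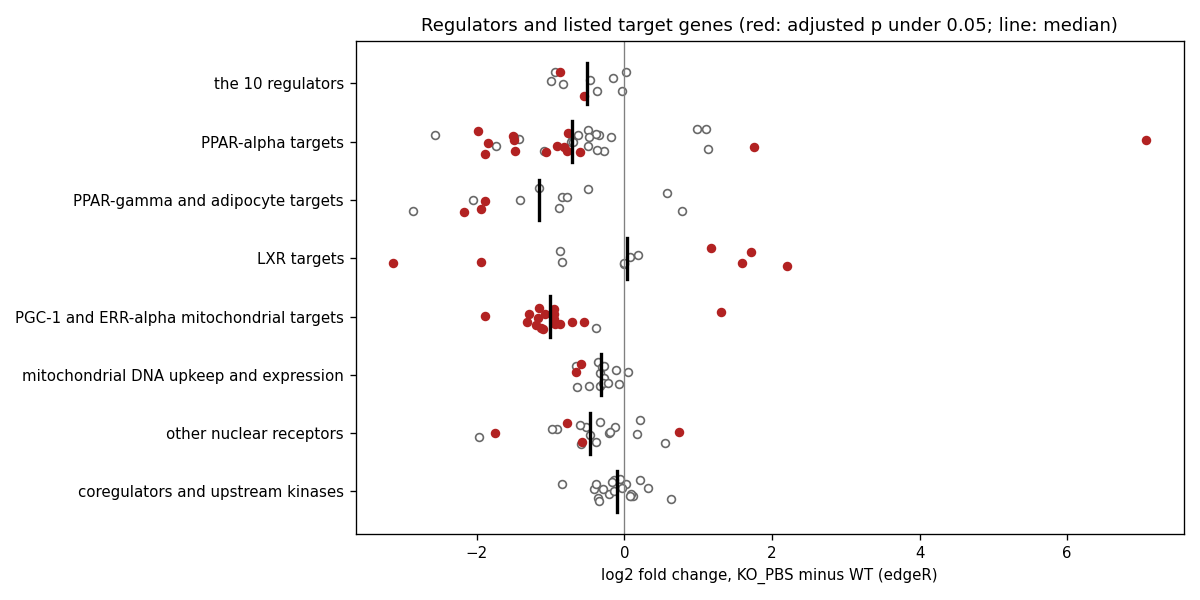
log2 fold change in KO_PBS against WT (horizontal axis) for the 10 regulators and the genes of 7 lists (rows); each circle is a gene, red where the adjusted p is under 0.05, and the line is the list's median. PGC-1 and ERR-alpha targets lie to the left of 0 with a median of -1.02, apart from Ucp2, and LXR targets lie on both sides.

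The genes whose library profile was most like that of each regulator were found among 12466 genes by the root mean square difference of log2 CPM, each gene centred on its own mean over 9 libraries. Esrra was nearest to Slc25a11 (0.06), Mrpl12 (0.08) and Sdhc (0.08), all genes of mitochondria, and Tfam to Fbxo3, Chchd4 and Mfn1 (0.04 to 0.06). Ppara was nearest to Shroom4, Slc5a12 and mFLJ00298 (0.22 in each case), and Ppargc1a to Nr3c2, Sorl1 and Etnk1 (0.23 to 0.24). Of these, Slc5a12 is among the proximal tubule markers and Nr3c2 among the other nuclear receptors listed. Pparg was nearest to Fabp4 (0.25), a fatty acid carrier counted among the white adipocyte markers. Fabp4 was at 39.1 CPM in KO_antimiR21 1, where Adipoq was at 0.0388 CPM. Rxrb was nearest to Nrf1 (0.03), Rxra to Sec16a (0.06), Nr1h3 to Klc4 (0.05), Ppard to Pcdh12 (0.10) and Ppargc1b to Tmem139 (0.13). These distances describe 9 libraries in 3 groups, and genes with little change of their own lie near many others. Between the regulators, the closest pairs were Nr1h3 with Esrra (0.18) and Nr1h3 with Tfam (0.20), and the farthest was Ppara with Pparg (1.08).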

How the data were processed

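Kidney mRNA was counted in 9 libraries of 3 groups. Expected counts per gene symbol were deposited by the authors, made with RSEM and Bowtie on mm9 per the submitters' processing notes; versions and strand are not given in the sources used here. The authors also deposited a log2 matrix, equal to log2 CPM plus 1 constant per library. limma is named in the processing notes.

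Expected counts were rounded and filtered with filterByExpr, leaving 17315 genes. One edgeR quasi-likelihood fit with TMM scaling covered all 9 libraries; adjusted p-values are Benjamini-Hochberg, two-sided, per comparison, and SE is the log2 change over the root of F. Log2 levels used a prior count of 2. Replicate pairs were not copies (chi-square per gene 29.5 to 132). Replicate numbers did not pair the samples.

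All 10 regulators were named. From each list, the 3 genes with the lowest p in KO_PBS against WT and the 1 lowest in KO_antimiR21 against KO_PBS could be named, and for each regulator the 3 genes nearest in profile whose mean log2 CPM reached 2. Members and lists were chosen with earlier results of these data known. Sex was called male at 10 Y-linked CPM. Alternatives are described in the closing section. The fit was tested on simulated data. The fits used edgeR 4.0.16, DESeq2 1.42.0 and limma 3.58.1 under R 4.3.3, and figures matplotlib. RSEM can split reads among near-identical copies such as the Cyp4a genes.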

Additional observations from a re-analysis of the deposited data

How the results depend on the processing

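Over 21 alternatives, 571 of 630 regulator values kept direction and side of the threshold, 11 lost a call, 8 gained one and 40 changed sign. For other named genes 522 of 587 values stayed, 55 lost and 10 gained a call and 0 changed sign. In KO_PBS against WT, 2 regulators fell; the count was 4 with DESeq2, 1 with library size only, 1 with the replicate block, 0 with sex as a covariate, 0 in male libraries, 4 with the name code and 4 with the transcript length covariate, and 1 to 4 when 1 library was left out. The number of all genes called lower moved too, from 1705 to 2346 with DESeq2, 904 with library size only, 1129 with the block, 0 with sex or in male libraries, 1076 with the name code, 2594 with the length covariate and 645 to 1804 when 1 library was left out. Without KO_PBS 3 the regulators' count was 4, and without any 1 WT library, KO_PBS 1 or KO_PBS 2 it was 1. The counts of 4 with the name code and without KO_PBS 3 are 1 result, since the estimates were the same. Those with sex as a covariate and in male libraries are not separate either, since both compare with WT 2 alone. Same-numbered libraries correlated by -0.37 to 0.44, over 0.1 in 3 of 9 pairs, and 2 of 9 libraries matched their own number best, so the block pairs by number only. Under the block Tfam had -0.56 (edgeR adjusted p = 0.0537).

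All sign changes were in regulators that had not passed. With library size only, the median of all genes moved to 0.25 (KO_PBS against WT), -0.14 (KO_antimiR21 against KO_PBS) and 0.11 (KO_antimiR21 against WT), and relative to it Esrra was at -0.85 and Tfam at -0.52 in the first. Higher genes were then 80.6% of calls in KO_PBS against WT, against 59.7% with TMM. The values were Ppard 0.24 and Rxra 0.13 in the first comparison, Rxra -0.11 in the second, and Ppara 0.12, Rxra 0.017 and Rxrb 0.043 in the third; relative to the median of all genes, 5 of these 6 had the same sign as with TMM, the exception being Ppara. With sex as a covariate they were Ppara 0.37 and Ppard 0.35 in the first and Ppara 0.67 in the third; in male libraries Ppara 0.39 and Ppard 0.37, and Ppara 0.69 and Ppard 0.013. With the name code they were Rxrb -0.016 in the first, Ppara -0.53, Rxra -0.36, Nr1h3 -0.053, Ppargc1a -0.22 and Ppargc1b -0.18 in the second, and Pparg 0.39 in the third. The length covariate gave Ppara 0.10 in the third. The cause was not tested.

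Leaving out 1 library in turn gave, in KO_PBS against WT, Ppara -1.08 to 0.45, Ppard -0.21 to 0.25 and Rxrb -0.031 to 0.11. In KO_antimiR21 against KO_PBS it gave Ppara -0.13 to 1.01, Pparg -0.15 to 0.96 and Rxra -0.13 to 0.24. In KO_antimiR21 against WT it gave Ppara -0.50 to 0.75, Pparg -0.99 to 0.13 and Rxra -0.25 to 0.0066. Over all genes, calls ran from 0 to 3753 higher and 0 to 2594 lower in KO_PBS against WT, 0 to 6 and 0 to 12 in KO_antimiR21 against KO_PBS, and 0 to 1617 and 0 to 394 in KO_antimiR21 against WT. Pparg, with 52 to 193 counts per library, had the fewest counts of the set.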
